A study of Rattus norvegicus with 40 samples.

Results

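Gene expression was compared between injured carotid arteries treated with tissue plasminogen activator (tPA) and sham-operated arteries, 1 day after surgery, in male Wistar-Kyoto rats aged 3 months. In the first group the left common carotid artery was injured with a balloon catheter, and recombinant tPA at 20 nmol/kg, dissolved in pluronic gel (a carrier that sets at body temperature), was laid on the outer side of the vessel. The second group was operated on without balloon injury, and no gel or tPA is named for it in the labels. Injury, gel and tPA therefore differ together between these groups and cannot be told apart in their comparison. Arrays were chosen by their titles: 3 of injured arteries with tPA and 4 of sham arteries, 7 of the 40 arrays in the series. Values from 3 arrays of left arteries injured and given plain gel (500 µl), also on day 1, and from 6 arrays of intact arteries of rats without surgery stand beside them. Each array holds RNA of 3 pooled vessels, so the spread between arrays is that between pools. Operation days are not stated in the labels.

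Balloon injury strips the endothelium and stretches the muscular middle layer of an artery. Platelets and white blood cells gather on the bared wall, smooth muscle cells lose their contractile programme, and over days they divide and move. Plasminogen activators turn plasminogen into plasmin, a protease that dissolves fibrin, activates metalloproteinases and loosens the matrix around cells. Interleukin 1 and chemokines call in neutrophils and monocytes, heme oxygenase and haptoglobin handle heme from lysed red cells, and guanylate cyclase and myosin genes mark the relaxed, contractile muscle cell.

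The arrays were each scaled to nearly one trimmed mean by the authors, 500.3 to 500.8 intensity units, with medians of 127.3 to 143.9 in the tPA group and 103.8 to 131.2 in the sham group. An injury index was computed as the mean signed log2 difference from sham day 1 over 474 probe sets that separated left gel from sham on day 1 (242 with gel higher, 232 with gel lower), chosen without any tPA array. It was 1.86 to 1.89 in left gel arrays by construction and 0.25 to 0.43 in intact arrays. In the tPA group replicates 1 and 3 had an index of 1.55 and 1.48, and the array labelled left tPA day 1 replicate 2 had 0.53. This was nearer the intact arrays and within the range of right gel arrays of day 1 (0.521 to 0.683). The right artery of the same number on day 1, right tPA replicate 2, had 1.30, and the other right tPA arrays of day 1 had 0.359 and 0.623. Results are therefore given with and without replicate 2, and leaving it out is a choice that rests on the expression values themselves. The tPA arrays also differed among themselves in the ratio of control probes at the 3' end to those at the 5' end of actin and GAPDH. The actin ratio was 9.10, 17.8 and 2.80 in tPA replicates 1 to 3 against 16.3 to 21.1 in sham arrays, and the GAPDH ratio 2.18, 11.4 and 0.243 against 7.53 to 10.3. Replicates 1 and 3, with the high injury index, thus had less 3' weighted RNA than every sham array, and the part of this in the results was not tested. The sham arrays formed alike pairs: the SD of log2 differences was 0.489 between replicates 1 and 2 and 0.532 between 3 and 4, against 0.732 to 0.787 across the pairs. Whether these sham arrays were independent was not tested.

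**Figure D1:**
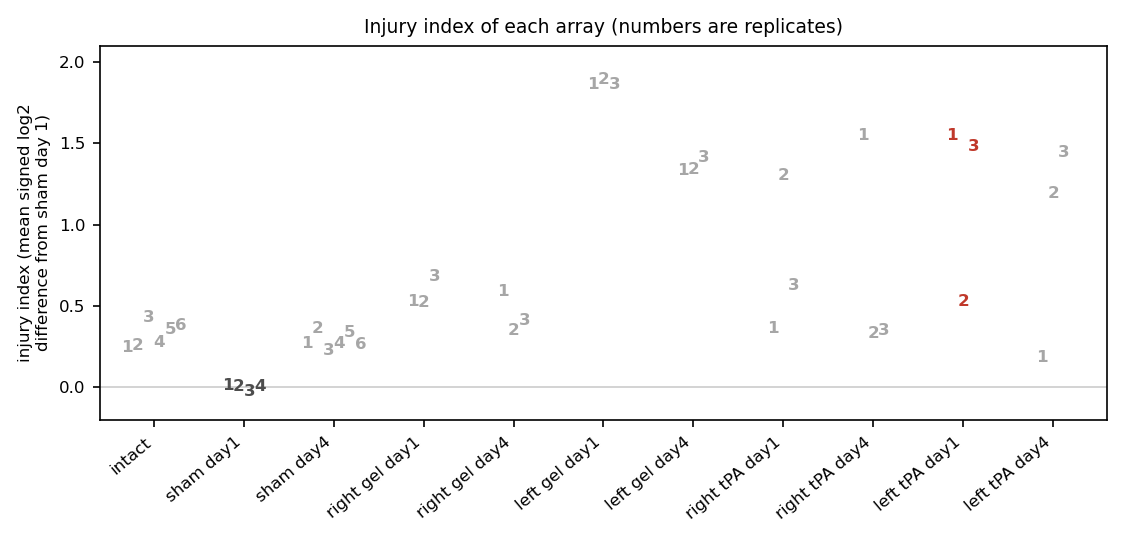
Injury index of each array (vertical axis, mean signed log2 difference from sham day 1 over 474 probe sets) for the 11 groups of the series (horizontal axis). Each number is the replicate of one array. Left tPA day 1 replicates 1 and 3 lie at 1.55 and 1.48 and replicate 2 at 0.53, while sham day 1 arrays lie near 0 and left gel day 1 arrays at 1.86 to 1.89 because the probe sets were chosen on those 2 groups.

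Against sham, 258 of 5827 probe sets differed on day 1, 94 higher (1.61%) and 164 lower (2.81%) with injury and tPA (limma, Benjamini-Hochberg adjusted p under 0.05), which is 4.43% of those tested. Represented by its brightest probe set, 161 of 3546 genes passed (4.54%), 55 higher (1.55%) and 106 lower (2.99%), and the median log2 difference over all genes was 0.10. The shares of 1.55% and 2.99% are the background for called genes in the lists below, none of which was tested as a set. With no test applied, all 3 tPA arrays lay above all 4 sham arrays in 402 genes (11.3%) and below them in 339 (9.56%). Without tPA replicate 2, 323 genes passed (9.11%), 130 higher (3.67%) and 193 lower (5.44%). The 144 genes that passed both ways kept their direction, 179 passed only without that array and 17 only with it. Among the 161 genes, replicate 2 lay closer to the sham mean than both other tPA arrays in 114. The count of probe sets fell to 98 without tPA replicate 1 and to 27 without replicate 3, and it was 150, 91 and 128 without sham replicate 1, 2 or 3. When each alike pair of sham arrays was averaged to 1 sample, 1 probe set passed, that of Cyp2c11. Fitting these 7 arrays alone gave 54. Of the 60 called genes with values below, Cyp2c11, Igfbp5, Myc and Ptgfr passed in every fit that left out 1 of the 7 arrays. A further 11 (Abcc9, Efemp1, Enpp3, Fabp5, Fbln5, Gucy1a1, Hp, Ptgs1, Rnase1, Spink8 and Sult1a1) lost their call without 1 array, always a tPA array. Each of the other 45 lost it without at least 2 arrays, most often tPA replicate 1 or 3. Without tPA replicate 2 the calls of 8 were lost: Adora2a, Adora2b, Adra1b, Bdkrb1, Fgf2, Mvd, Rnase1 and Smc4. Quantile normalization gave 50 higher and 182 lower probe sets, and scaling to one median 59 and 242. The latter moved all differences by a median of -0.16.

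**Figure D2:**
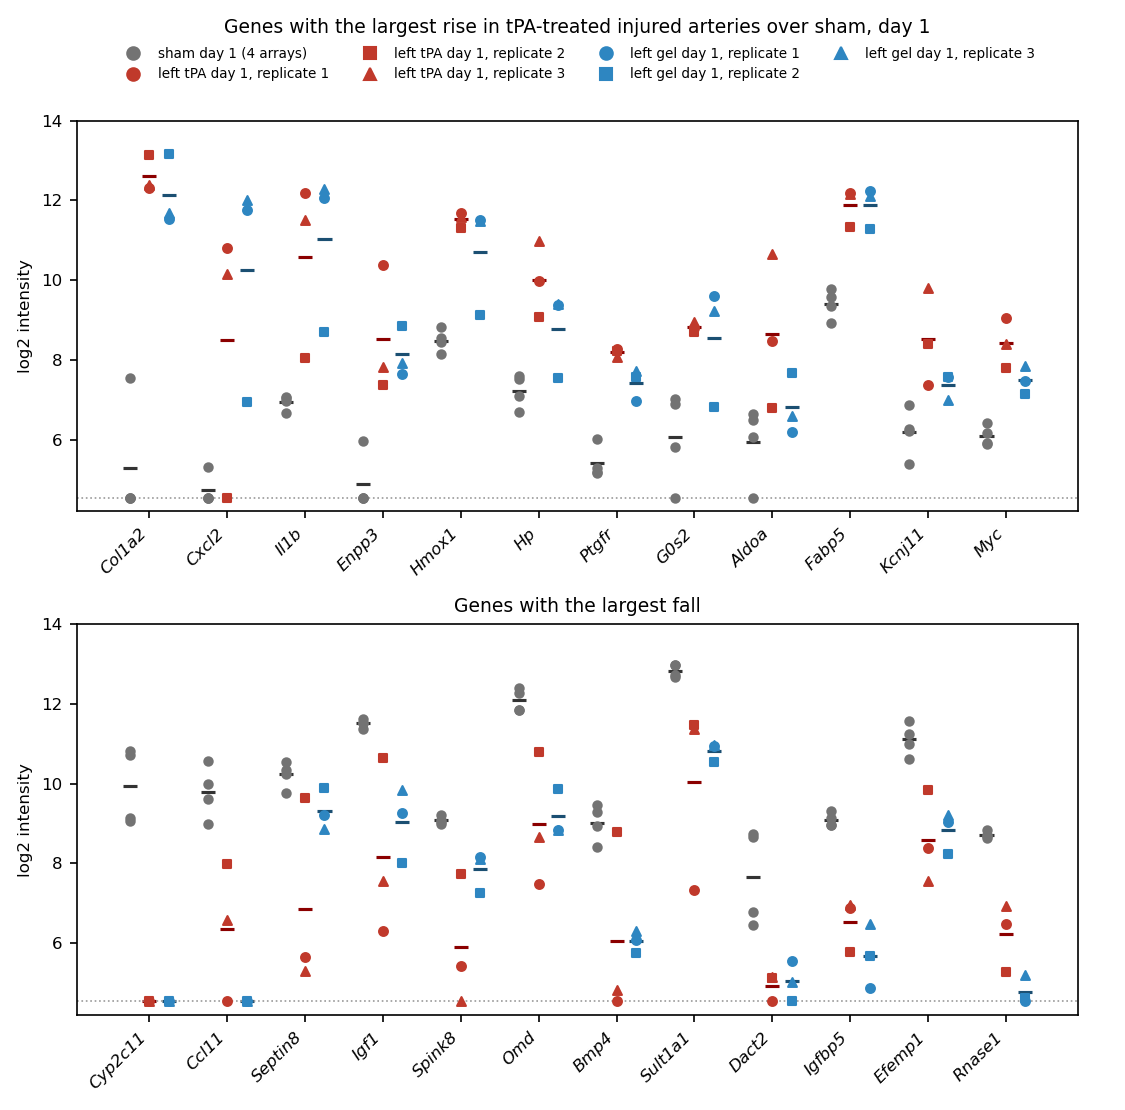
Log2 intensity (vertical axis) of the 12 called genes that rose most over sham (upper) and the 12 that fell most (lower), for each array of sham day 1 (grey), left tPA day 1 (red) and left gel day 1 (blue). Horizontal bars are group means, marker shapes are replicates and the dotted line is the floor of 23.3 intensity units. Squares in red, tPA replicate 2, lie nearest the sham points for Il1b, Cxcl2 and Bmp4 and with the other tPA arrays for Ptgfr, Hmox1 and G0s2.

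Inflammatory messengers held some of the largest rises. Il1b, which encodes the cytokine interleukin 1 beta, measured 4607, 262 and 2909 intensity units in tPA replicates 1 to 3 and 134, 102, 125 and 132 in sham replicates 1 to 4. Every tPA array lay above every sham array, with replicate 2 lowest. The log2 difference was 3.63 (SE 0.85, limma adjusted p = 0.0144), or 12.4-fold, and 4.90 without replicate 2 (adjusted p = 0.000611). Cxcl2, a chemokine that draws neutrophils, measured 1783, 12.8 and 1132 with tPA and 6.8, 39.4, 4.4 and 7.8 in sham. Here tPA replicate 2 lay at the floor and below 1 sham array, so the groups overlapped. Its difference of 3.76 (SE 1.10, limma adjusted p = 0.0425) became 5.74 without that array (adjusted p = 0.00068). The call for Cxcl2 was lost without tPA replicate 1 or 3 and without any 1 sham array. Ccl11, eotaxin, which draws eosinophils, went the other way: 7, 252 and 95.5 with tPA against 788, 1021, 1510 and 509 in sham. All tPA arrays lay below all sham arrays (difference -3.43, SE 0.89, limma adjusted p = 0.0234). Ccl11 was at 2.5 to 6.4 in left gel arrays, and it did not pass against intact arteries (-1.81, limma adjusted p = 0.184).

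Of 24 genes for chemokines, cytokines and their receptors tested, 2 rose, 1 fell and 21 did not pass, and their median difference was 0.91 beside 0.10 over all genes. Without tPA replicate 2, 6 were higher and 1 lower. Il18, an inflammasome cytokine, measured 942, 373 and 1072 against 140 to 200 (2.07, limma adjusted p = 0.0801; 2.55 and 0.0389 without replicate 2). Ccl2, which draws monocytes, measured 6070, 726 and 5050 against 686 to 1547, with replicate 2 inside the sham range. Its difference was 1.48 (limma adjusted p = 0.206), and 2.46 without that array (0.028). Il6 was too dim over all arrays for the main fit. It measured 888.4, 42.4 and 227.1 with tPA against 26.7, 14.6, 26.2 and 7.4 in sham, and in a fit without the filter the difference was 3.04 (SE 0.86, limma adjusted p = 0.0493).

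Some genes of neutrophils, the first white blood cells to enter injured tissue, separated the arrays. S100a8 and S100a9 encode the subunits of calprotectin, a major protein of the neutrophil cytoplasm. S100a8 measured 1115, 90.9 and 4683 with tPA against 90.9, 124, 56.4 and 30.8 in sham. S100a9 measured 414, 61.9 and 1073 against 31.6, 37.5, 7.9 and 10.2. Replicates 1 and 3 were far above every sham array for both, and replicate 2 was within or just above the sham range. Neither passed with all arrays (3.55 and 3.41, limma adjusted p = 0.0635 and 0.055), and both did without replicate 2 (5.10 and 4.56, adjusted p = 0.00539 and 0.0103). Mmp9, gelatinase B of neutrophil granules, followed the same order with 800, 15.9 and 887 against 20.1 to 72.4. Il1r2, the decoy receptor for interleukin 1, was the 1 member of the 7 tested neutrophil genes that passed, at 743, 286 and 807 against 167 to 203 (1.59, SE 0.44, limma adjusted p = 0.0319). The median difference of the 7 genes was 1.59 with 0 lower, and without replicate 2, 4 passed, all higher. Defa5 measured 39.8, 62.4 and 353.7 against 32.7 to 71.2, with replicates 1 and 2 inside the sham range. Defa5, Cxcr1 and Cxcr2 did not pass (1.12, 0.43 and 0.04, limma adjusted p = 0.403, 0.61 and 0.976), nor did they without replicate 2. Summed over the 7 genes, intensity was 3638, 997 and 8260 in tPA replicates 1 to 3, 657 to 991 in sham, and 5485, 1185 and 5714 in left gel replicates 1 to 3. Gel replicate 2, whose injury index was 1.89, was thus also low in these genes. In bulk tissue fewer cells of a type and less RNA per cell cannot be told apart.

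Of 12 macrophage markers tested, 1 rose, Cd14, the lipopolysaccharide co-receptor, and 11 did not pass, where 1.55% of all genes rose. Cd14 measured 1798, 540 and 1484 with tPA against 329 to 359 in sham, with no overlap (1.72, SE 0.44, limma adjusted p = 0.0219). The markers' summed intensity was 17809 to 30947 with tPA and 13442 to 16550 in sham, so that all 3 tPA arrays lay above the sham range. The cathepsin genes Ctss and Ctsb are bright members of this sum, and the members did not share a direction: 10 of the 12 estimates were above 0 and 2 below. Those 2 were C1qb, a complement subunit, at 20.8, 1432 and 656 against 679 to 1193 (-1.67, limma adjusted p = 0.303), and Cd74, the invariant chain (-1.33, limma adjusted p = 0.481). Ctss, a lysosomal protease of antigen-presenting cells, measured 8145, 3864 and 4631 against 2300 to 2549 and missed the threshold (1.12, limma adjusted p = 0.0604; 1.35 and 0.0303 without replicate 2). Of 16 lymphocyte and pan-leukocyte markers, Gzmb, a protease of cytotoxic cells, rose and 15 did not pass. Gzmb measured 224, 196 and 232 against 73.6 to 115 (1.17, SE 0.31, limma adjusted p = 0.024), and another probe set of Gzmb had a difference of the opposite sign. Cd44, an adhesion receptor for hyaluronan, measured 4612, 697 and 3862 against 446 to 828 and passed only without replicate 2 (2.78, limma adjusted p = 0.00365). Of the 16 estimates with all arrays 12 were above 0 and 4 below. Cd48, of the 4, measured 642.5, 1177.5 and 596.4 against 1315 to 1979, below every sham array (-1.11, limma adjusted p = 0.119). The others were Cd3g (-1.44), Spn (-0.77) and Lck (-0.30).

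**Figure D3:**
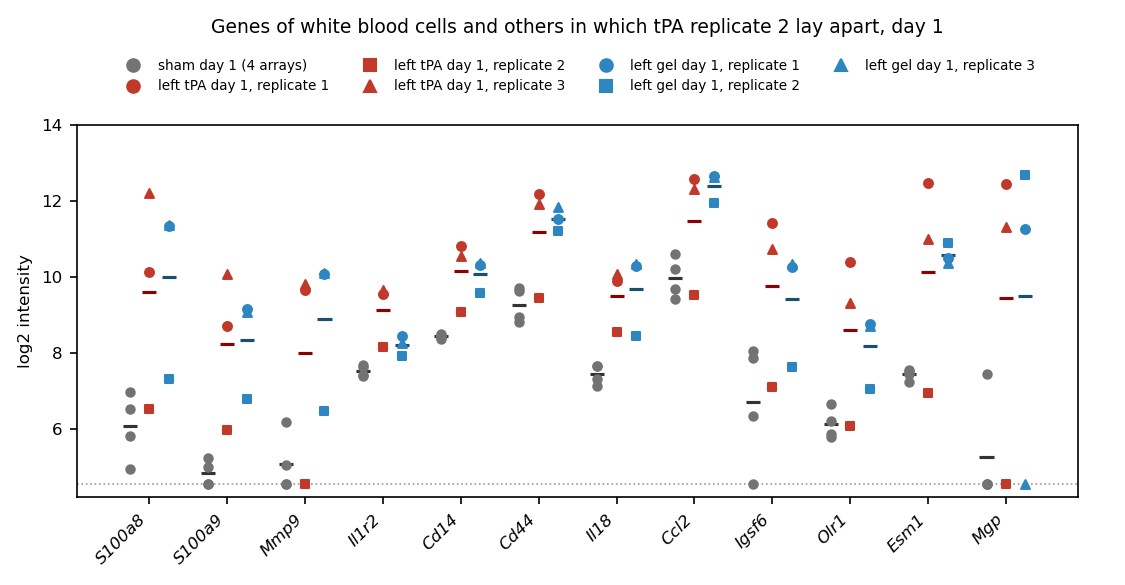
Log2 intensity (vertical axis) of 12 genes, most of them expressed by white blood cells, in sham day 1 (grey), left tPA day 1 (red) and left gel day 1 (blue) arrays. Bars are group means, shapes are replicates and the dotted line is the floor. S100a8, Mmp9, Ccl2 and Esm1 show tPA replicates 1 and 3 far above sham and replicate 2 among or below the sham arrays.

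Promoters of the called genes were searched for motifs of 3 factor families that respond to injury, in the 250 bases before each transcription start (RefSeq, build GRCr8, either strand). The NF-kappa-B motif (GGG, any 2 bases, TTTCC) stood in 3 of the 44 matched promoters of the 55 genes that rose (Cxcl2, Dusp5 and Lipa), 6.82%, against 2 of 91 for the 106 that fell and 1.61% of all 3166 matched genes tested. A shorter form (GGG, any 2 bases, TTCC), which can overlap the longer one shifted by 1 base, stood in 2 and 2, against 6.06%. The AP-1 motif TGANTCA stood in 5 of the genes that rose (11.4%) and 3 of those that fell (3.3%), against 5.12%. The CArG box of serum response factor stood in 1 and 3, against 1.61%. These counts are small and describe letters, not binding. The 120 bases before the start are shown for Cxcl2 (chr14:17467256-17467375, minus strand), with 2 NF-kappa-B matches starting 74 and 54 bases before the start. They are also shown for Dusp5 (chr1:262543654-262543773, plus strand), with 1 match on the opposite strand at 90 bases, and for Mmp3 (chr8:12925161-12925280, plus strand), with an AP-1 match at 71 bases. Capitals mark the matches.
Cxcl2: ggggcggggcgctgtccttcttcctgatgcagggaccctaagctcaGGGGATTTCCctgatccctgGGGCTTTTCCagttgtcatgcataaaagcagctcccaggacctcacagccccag
Dusp5: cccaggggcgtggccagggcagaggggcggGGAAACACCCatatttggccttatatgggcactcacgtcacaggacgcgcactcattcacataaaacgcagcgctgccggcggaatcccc
Mmp3: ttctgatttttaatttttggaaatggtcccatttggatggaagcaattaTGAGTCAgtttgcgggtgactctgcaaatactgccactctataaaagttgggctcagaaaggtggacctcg

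Genes that handle heme and oxidants changed in both directions. Hmox1, heme oxygenase, which breaks heme down, measured 3304, 2521 and 3069 with tPA against 346, 281, 449 and 374 in sham. The 3 tPA arrays lay close together, replicate 2 included (3.04, SE 0.70, limma adjusted p = 0.014, 8.25-fold). Intact arrays measured 58.3 to 395.4. Hp, haptoglobin, the carrier of free haemoglobin, measured 1005, 538 and 2018 against 104 to 194, again with no overlap (2.78, SE 0.54, limma adjusted p = 0.0066). These were the 2 called members of the 16 acute phase and heme genes tested, which had a median difference of 0.18. Sod2, the mitochondrial superoxide dismutase, measured 1061, 523 and 844 with tPA against 263 to 366 in sham and rose (1.39, SE 0.41, limma adjusted p = 0.0429). Gsta1 and Gstm2, glutathione transferases, and Gpx3, a secreted glutathione peroxidase, fell. The other members of these enzyme families in the list below, Gstm1, Gstp1, Gsta3, Gpx1 and Gpx4, did not pass with all arrays (limma adjusted p = 0.214, 0.363, 0.89, 0.983 and 0.59). Without replicate 2 Gstm1 passed (-1.09, limma adjusted p = 0.0388). Gsta1 measured 510, 2202 and 571 against 3606 to 6164 (-2.44, SE 0.63, limma adjusted p = 0.0229). Gstm2 differed by -1.55 and Gpx3 by -0.98. In all, 1 of 37 heat shock and antioxidant genes rose, 3 fell and 33 did not pass, where 1.55% of all genes rose and 2.99% fell.

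In the plasminogen and coagulation system, to which the applied protein belongs, 1 of 20 tested genes fell and 0 rose (limma), and 5 (25%) had an unadjusted p under 0.05, near the 22.3% over all genes. Plat, the rat's tPA gene, measured 891, 364 and 360 in injured arteries with tPA and 498, 692, 662 and 458 in sham. The ranges overlapped, and the difference of -0.22 (SE 0.39, limma adjusted p = 0.78) had a sign that turned to 0.0026 without tPA replicate 3. Plau, urokinase, measured 513, 329 and 797 against 243 to 330 (0.77, limma adjusted p = 0.302). Plaur, the urokinase receptor, measured 1044, 411 and 663 against 190 to 268, all tPA arrays above all sham arrays. It did not pass with all arrays (1.60, SE 0.53, limma adjusted p = 0.074), and did without replicate 2 (1.94, adjusted p = 0.0384). F3, tissue factor, which starts coagulation, measured 306, 766 and 200 with tPA against 1390 to 1775 in sham (-2.12, SE 0.58, limma adjusted p = 0.0319). It was the 1 called gene of this list, whose median difference was 0.21.

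Among 17 metalloproteinase, inhibitor and related protease genes, 1 rose, 2 fell and 14 did not pass, where 1.55% of all genes rose and 2.99% fell. Mmp3, stromelysin 1, which plasmin can activate, measured 174, 154 and 246 with tPA against 62.4 to 95.1 in sham (1.37, SE 0.37, limma adjusted p = 0.028). The groups did not overlap and replicate 2 was lowest. Ctsk, the collagen-degrading cathepsin K, measured 1020, 2493 and 1072 against 3343 to 4490 (-1.47, SE 0.35, limma adjusted p = 0.0157), and Mmp23 fell by 1.59. Mmp2, gelatinase A, measured 2237, 4796 and 1194 against 4176 to 4851, with replicate 2 inside the sham range (-0.95, limma adjusted p = 0.0733; -1.47 and 0.00247 without it). Over the mean of its probe sets the sign of Mmp2 turned (0.0039). Timp1, an inhibitor of these enzymes, measured 5576, 4306 and 3600 against 1980 to 2889, without overlap, and missed the threshold (0.92, limma adjusted p = 0.11).

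Of 41 matrix genes tested, 1 rose, 4 fell and 36 did not pass, where 1.55% of all genes rose and 2.99% fell. Omd, osteomodulin, a small keratan sulfate proteoglycan, measured 180, 1781 and 406 with tPA against 3677 to 5387 in sham (-3.11, SE 0.78, limma adjusted p = 0.019). Lum, lumican, measured 2128, 2012 and 437 against 4884 to 6662 (-2.21, SE 0.54, limma adjusted p = 0.0173). Fmod, fibromodulin, differed by -1.75 (limma adjusted p = 0.0268), though its other probe set had the opposite sign. These 3 are related small leucine-rich proteoglycans that space collagen fibrils, and all 3 tPA arrays lay below the sham arrays for each. Dcn and Bgn, decorin and biglycan of the same family, did not pass (-0.74 and 0.89, limma adjusted p = 0.288 and 0.846). Fbln5, fibulin 5, needed for elastic fibres, measured 3789, 4367 and 1399 against 6716 to 9578 (-1.50, SE 0.30, limma adjusted p = 0.0067). Efemp1, fibulin 3, outside this list, differed by -2.51 (SE 0.51, limma adjusted p = 0.0067). Col1a2, a chain of type I collagen, was the 1 called rise. It measured 5084, 8940 and 5361 with tPA and 186, 17.4, 12.1 and 12.8 in sham (7.32, SE 1.88, limma adjusted p = 0.022). With 3 of 4 sham arrays at the floor, 7.32 has little meaning as a size. Its probe set was among 55 with an upper quartile over 2000 that read below 100 on some arrays. Of the called genes 3 were read from such probe sets. Why these read near 0 was not tested. Intact arteries measured 2268 to 5339 for Col1a2 except 1 array at 141. Col1a1, the partner chain, measured 3999, 9377 and 6827 against 6961 to 8652 and did not pass (-0.26, limma adjusted p = 0.551). Its sign turned without tPA replicate 1 (0.077) and over the mean of its probe sets (0.17). The matrix list had a median difference of 0.08.

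Of 21 genes listed as fibroblast and adventitial, not all particular to these cells, 1 rose and 5 fell, and 1 and 8 without tPA replicate 2. The median difference was -0.30 with all arrays. Cyp2c11, a cytochrome P450, was at or below the floor in all 3 tPA arrays (16.7, 20.7 and 16.3) and measured 567, 539, 1804 and 1676 in sham. It was at least 42.1-fold lower (limma adjusted p = 2.68e-06). Cyp2c11 was also at the floor in left gel arrays, and it did not pass against intact arteries (-1.21, limma adjusted p = 0.206), which had 15.1 to 121.9. The sham arrays of day 1 thus stood above intact arrays too. Igfbp5, which binds insulin-like growth factors, measured 118, 54.8 and 125 against 498 to 636 (-2.56, SE 0.57, limma adjusted p = 0.012) and likewise did not pass against intact (0.25, limma adjusted p = 0.851). Aspn, asporin, a collagen-binding proteoglycan, differed by -2.27, and Ly6c, a surface protein of monocytes and vessel cells, rose. Ly6c measured 1187, 436 and 882 against 194 to 317 (1.71, SE 0.40, limma adjusted p = 0.0144). Summed over the 21 genes, intensity was 34227, 52566 and 23039 in tPA replicates 1 to 3 and 41872 to 48622 in sham.

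Some genes of contractile smooth muscle were lower, while most of those for contractile proteins did not pass. Gucy1a1 and Gucy1b1 encode the subunits of soluble guanylate cyclase, the nitric oxide receptor that relaxes the vessel. Gucy1a1 measured 775, 1795 and 576 with tPA against 2557 to 3210 in sham (-1.64, SE 0.34, limma adjusted p = 0.00773). Gucy1b1 measured 1231, 785 and 574 against 1564 to 2457 (-1.21, SE 0.32, limma adjusted p = 0.0234). Both subunits were below the sham range on every tPA array. Myh11, the smooth muscle myosin heavy chain, measured 1885, 3176 and 908 against 4237 to 6094 (-1.59, SE 0.41, limma adjusted p = 0.0225), with 1 other probe set of opposite sign. Itga8, an integrin of contractile cells, differed by -2.17 (limma adjusted p = 0.0234). Acta2, smooth muscle actin, measured 5757, 6421 and 5262 against 6300 to 6799 and did not pass (-0.19, limma adjusted p = 0.659). Neither did Tagln, Cnn1, Myl6, Myl9, Tpm1, Tpm2, Cald1 and Actg2, also of the contractile apparatus (limma adjusted p = 0.149 to 0.929). In this list 4 of 22 genes fell and 0 rose, 5 without replicate 2, with a median difference of -0.58. Its summed intensity was 44430, 70095 and 37828 in tPA replicates 1 to 3 and 58061 to 64968 in sham.

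Receptors, channels and enzymes that set vessel tone split evenly, 5 of 45 higher and 5 lower (median difference 0.20), and 2 and 5 without replicate 2. Ptgfr, the receptor of the constricting prostaglandin F2 alpha, measured 311, 296 and 268 with tPA against 38.8, 35.7, 36.3 and 64.9 in sham. The tPA arrays agreed closely and stood clear of sham (2.77, SE 0.51, limma adjusted p = 0.00517, 6.84-fold). Enpp3, which cleaves extracellular nucleotides, measured 1319, 165 and 227 against 20.9 to 61.9 (3.63, SE 0.72, limma adjusted p = 0.0067). Bdkrb1, the bradykinin receptor that appears with inflammation, measured 205, 241 and 190 against 18.3 to 134 (2.01, SE 0.56, limma adjusted p = 0.0337). The adenosine receptors Adora2b and Adora2a rose by 1.51 and 0.93 (limma adjusted p = 0.037 and 0.0469). Without tPA replicate 2, Bdkrb1, Adora2b and Adora2a lost their calls (1.91, 1.35 and 0.74, limma adjusted p = 0.0594, 0.0839 and 0.138). Abcc9, the sulfonylurea receptor of vascular potassium channels, measured 190, 375 and 386 against 1251 to 1739 (-2.22, SE 0.47, limma adjusted p = 0.00886), and its other probe set had the opposite sign. Ptgs1, the constitutive cyclooxygenase, measured 592, 651 and 609 against 1355 to 2037 (-1.45, SE 0.33, limma adjusted p = 0.0126). Ptgs1, like Ptgfr, varied little among the tPA arrays. Itpr1, a calcium release channel, Adra1b, an adrenergic receptor, and Cacnb2, a calcium channel subunit, fell by 1.90, 1.19 and 1.04. Kcnj11, a pore subunit of ATP-sensitive potassium channels, rose outside this list (2.33, limma adjusted p = 0.0319).

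Among 52 genes listed with growth factors and their receptors, Rnase1 and binding proteins included, 1 rose and 5 fell, with a median difference of -0.01. Over all genes 1.55% rose and 2.99% fell. Igf1, insulin-like growth factor 1, measured 79.5, 1607 and 188 with tPA against 2657 to 3142 in sham (-3.34, SE 0.74, limma adjusted p = 0.0122). Of its 5 tested probe sets 1 had the opposite sign. Bmp4, a bone morphogenetic protein, measured 8.7, 444 and 28.6 against 340 to 710, with replicate 2 inside the sham range (-2.97, SE 0.70, limma adjusted p = 0.0145; -4.34 and 0.000113 without it). Ntf3, neurotrophin 3, measured 1008, 4230 and 1488 against 5304 to 5882 (-1.60, SE 0.37, limma adjusted p = 0.014). Rnase1, a secreted ribonuclease, measured 88.6, 38.5 and 121 with tPA against 396 to 456 in sham (-2.50, limma adjusted p = 0.0151; -2.02 and 0.0513 without replicate 2), and Igfbp5 is given above. Fgf2, a fibroblast growth factor released by injured muscle cells, rose by 1.00 (limma adjusted p = 0.028). Spp1, osteopontin, measured 7772, 2401 and 4271 against 1256 to 2414 and did not pass (1.27, limma adjusted p = 0.128).

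Of 37 immediate early and stress transcription genes, Myc and Dusp5 rose and 35 did not pass, with a median difference of 0.33. Myc, a driver of growth and ribosome synthesis, measured 528, 224 and 335 against 59.6 to 84.9 (2.32, SE 0.46, limma adjusted p = 0.0067). Dusp5, which switches off ERK kinase, measured 684, 568 and 636 against 218 to 363 (1.13, SE 0.32, limma adjusted p = 0.0337). Neither gene's groups overlapped. Fabp5, a fatty acid carrier, measured 4620, 2552 and 4532 against 481 to 880 (2.47, SE 0.51, limma adjusted p = 0.00773), and G0s2, an inhibitor of fat breakdown, 446, 416 and 495 against 14.5 to 130. Aldoa, a glycolytic enzyme, was the 1 called gene of 24 in glycolysis and hypoxia (2.70, limma adjusted p = 0.0254). Of 16 sterol synthesis genes Mvd rose (1.12, limma adjusted p = 0.0327; 1.03 and 0.0666 without replicate 2). Among 9 clock genes Bhlhe40 rose (1.37) and Bmal1 fell. Bmal1 measured 154, 253 and 413 with tPA against 657 to 1104 in sham (-1.70, limma adjusted p = 0.0327). Against intact arteries it was higher (2.16, limma adjusted p = 0.00206), so the direction depended on the control group. The hour of tissue collection is not stated in the labels.

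The other genes with the largest falls were Septin8, a cytoskeletal GTPase, Spink8, a protease inhibitor of the Kazal family, Sult1a1, a sulfotransferase, and Dact2, a regulator of Wnt and TGF-beta signalling. Septin8 measured 50.2, 793 and 39.7 with tPA against 876 to 1498 (-3.37, SE 0.80, limma adjusted p = 0.0151). Spink8 measured 43.0, 214 and 21.7 against 504 to 598 (-3.18, SE 0.60, limma adjusted p = 0.00556). Replicate 2 lay nearest to sham for both and still below it. Sult1a1 and Dact2 differed by -2.78 and -2.73. In 6 further lists limma called no gene with all arrays. At an unadjusted p under 0.05 stood 3 of 20 antigen presentation and interferon genes, 3 of 14 endothelial, 15 of 36 skeletal muscle, 5 of 31 nerve, 9 of 21 adipocyte and 8 of 26 cytoskeleton genes. The share over all genes was 22.3% (791 of 3546), and the antigen presentation, endothelial and nerve lists did not exceed it.

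**Figure D4:**
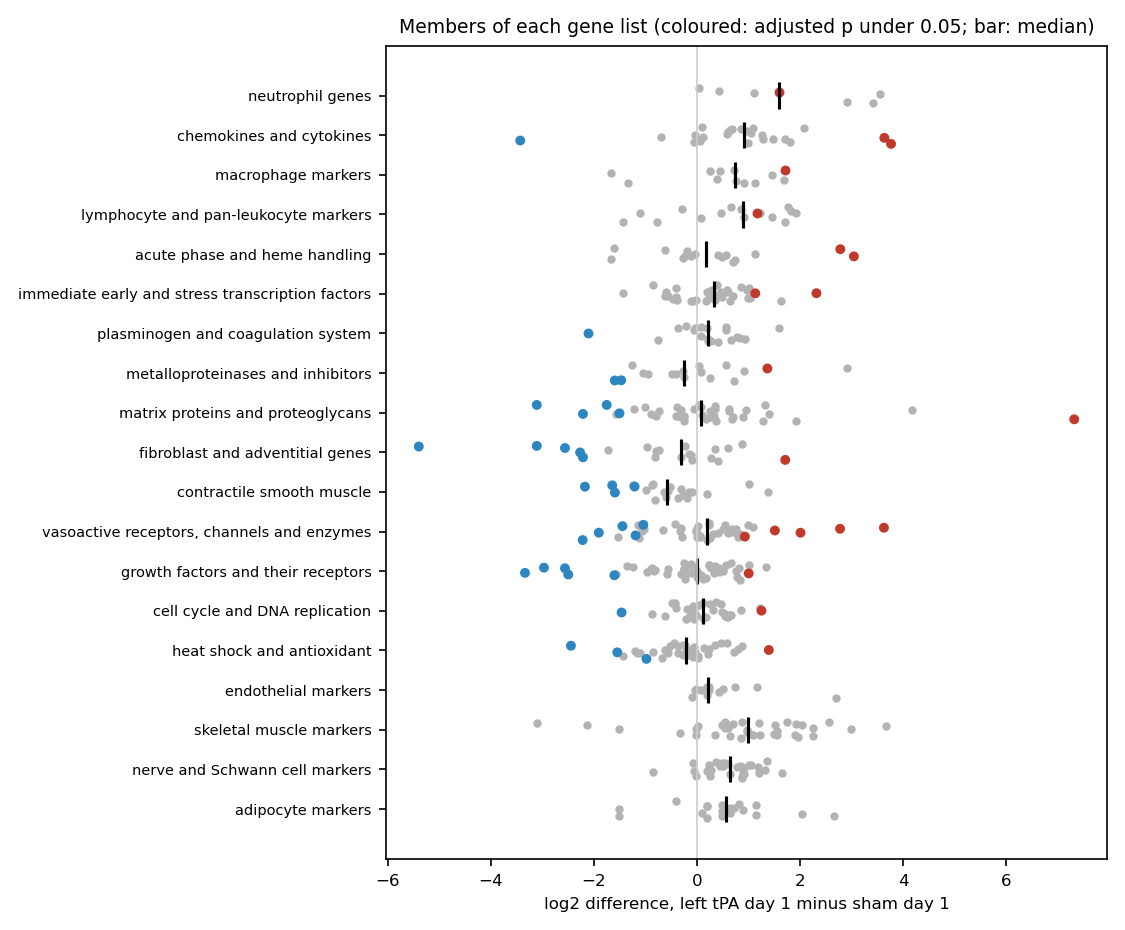
Log2 difference, left tPA day 1 minus sham day 1 (horizontal axis), of each tested gene in 19 lists (rows). Grey points did not pass, red points were higher and blue points lower at a limma adjusted p under 0.05, and black bars are medians. The median was 1.59 in neutrophil genes and -0.58 in contractile smooth muscle, and the vasoactive list holds 5 points of each colour.

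The dissected vessels differed in other tissues they may have held. Summed over 36 skeletal muscle markers, intensity was 6346, 12683 and 75181 in tPA replicates 1 to 3, 9131 to 11780 in sham and 34813 to 63669 in left gel arrays. Over 31 nerve and Schwann cell markers it was 9329, 32647 and 10816 against 9827 to 14465, and over 21 adipocyte markers 10225, 26922 and 29216 against 12231 to 17350. By these sums replicate 3 was high in muscle and fat genes, replicate 2 in nerve and fat genes, and replicate 1 was below the sham range in all 3. Single genes showed this for replicates 2 and 3 but not for replicate 1. Cox8b, a muscle respiratory subunit, measured 77.3, 367 and 6138 against 20.4 to 81.9, and Gap43, of growing axons, 267, 1241 and 169 against 143 to 240. Ucp1, the uncoupling protein of brown fat, measured 73.2, 2023 and 942 against 71.5 to 94.8. Replicate 1 was thus within the sham range for Cox8b and Ucp1 and above it for Gap43. None of these 3 genes passed (limma adjusted p = 0.0635, 0.2 and 0.0724), and Tcap, a muscle marker, was at the floor in all sham arrays. List members did not share a direction. With all arrays 30 muscle estimates were above 0 and 6 below, 27 and 4 in nerve genes, and 18 and 3 in adipocyte genes. Without replicate 2, 3 muscle markers passed higher and 3 lower, and 0 and 2 adipocyte markers. Endothelial markers summed to 16928, 7873 and 8839 against 5008 to 6559, above sham in all 3, and to 9431 to 12770 in left gel arrays. Aqp1 (3196, 1997 and 1986 against 928 to 1299) and Esm1 (5651, 123 and 2023 against 149 to 188) are bright members of this sum. None of the 14 markers passed with all arrays, and 11 estimates were above 0 and 3 below. Pecam1, Thbd and Nos3 differed by 0.19, 0.09 and -0.03. The part of these tissues in the gene results was not tested.

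The same injury without tPA was tested directly, since sham cancels when left tPA is set against left gel. The applied protein, any difference between these operations and the array differences given above then remain: the GAPDH ratio was 2.18, 11.4 and 0.243 in tPA arrays against 6.47 to 9.04 in gel, and tPA replicate 2 had the low injury index. Their part was not tested. In this comparison 7 probe sets (0.12%) and 5 genes (0.141%) passed. Cell division genes made up most of it, with less signal under tPA. Cdk1, the mitotic kinase, measured 70.8, 105 and 137 with tPA, 92.9 to 119 in sham and 1036, 602 and 1074 in gel. Cenpw, a centromere protein, measured 101, 150 and 78.3, 124 to 185 and 653 to 755. The tPA arrays lay below, within or, for Cdk1 in replicate 3, just above the sham range, and every gel array lay far above both. The differences from gel were -3.12 (SE 0.68, limma adjusted p = 0.0498) and -2.71 (SE 0.55, limma adjusted p = 0.0366). Against sham neither passed (-0.09 and -0.40), and the sign of Cdk1 turned without tPA replicate 1 (0.17).

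Pcna, the replication clamp, measured 3985, 1516 and 2427 with tPA, 2309 to 2790 in sham and 5863 to 7171 in gel (-1.38 from gel, SE 0.29, limma adjusted p = 0.0472). Its difference from sham was -0.07, turned to 0.28 without tPA replicate 2 and to 0.0074 over the mean of its probe sets. Smc4, a condensin subunit, measured 689, 268 and 399 with tPA, 854 to 1420 in sham and 1881 to 2156 in gel. It was lower than gel (-2.29, SE 0.46, limma adjusted p = 0.0366) and lower than sham (-1.46, SE 0.43, limma adjusted p = 0.0429), the latter not without tPA replicate 2 (-1.14, limma adjusted p = 0.139). Of the 32 cell cycle genes tested, Cdc25b, a phosphatase that activates Cdk1, rose over sham (1.25, limma adjusted p = 0.0329). Smc4 fell and 30 did not pass, where 1.55% of all genes rose and 2.99% fell. The list's median was 0.11 for tPA minus sham, 1.39 for gel minus sham and -1.48 for tPA minus gel. Adora2a, a receptor that restrains inflammatory cells, was higher than gel: 335, 519 and 371 against 71.1, 206 and 146 (1.64, SE 0.30, limma adjusted p = 0.0232). Without tPA replicate 2, 15 genes passed against gel (0.423%); Adora2a and Cenpw were among them. Cdk1, Pcna and Smc4 were not, with differences of -3.15, -1.03 and -1.97 (limma adjusted p = 0.0546, 0.115 and 0.0661). By limma no probe set passed without tPA replicate 3, gel replicate 1 or gel replicate 3, where 657, 513 and 630 had an unadjusted p under 0.05. One called probe set of Tpm1, a tropomyosin, which is not its brightest, differed by -4.42, and an unnamed one by -1.99.

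**Figure D5:**
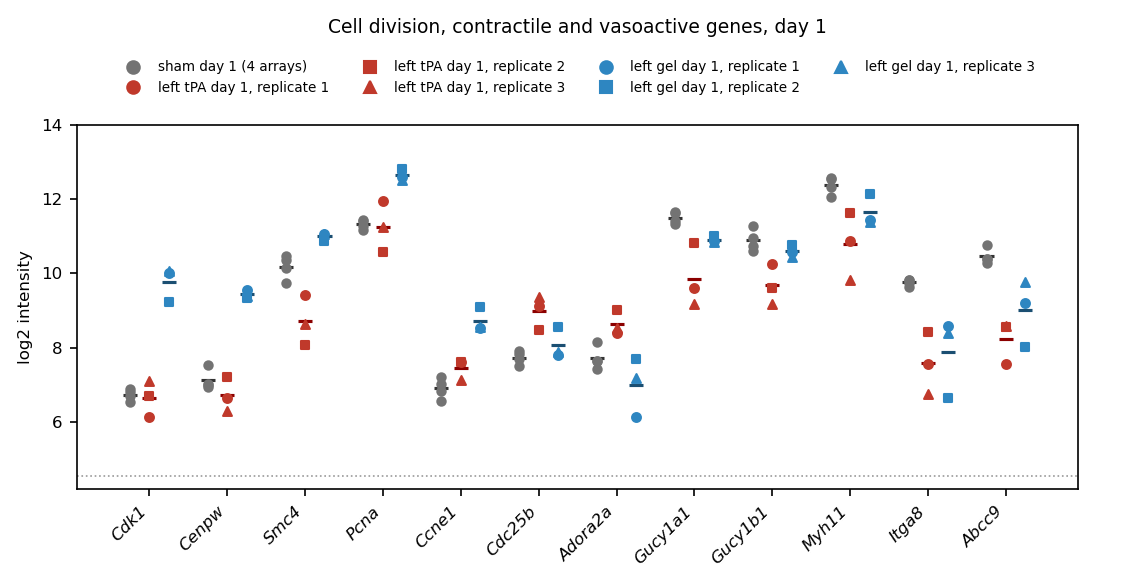
Log2 intensity (vertical axis) of cell division genes (Cdk1 to Cdc25b), Adora2a, and contractile and vasoactive genes (Gucy1a1 to Abcc9) in sham day 1 (grey), left tPA day 1 (red) and left gel day 1 (blue) arrays. Bars are group means, shapes are replicates and the dotted line is the floor. For Cdk1 and Cenpw the gel arrays stand apart and the tPA arrays lie with sham, whereas for Itga8 the tPA and gel arrays both lie below sham.

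Of the genes called against sham, only Adora2a and Smc4 also passed between tPA and gel, and leading genes such as those below did not. Il1b measured 4238, 418 and 5011 in gel, Hmox1 2883, 555 and 2854, and Fabp5 4840, 2477 and 4426, and the tPA minus gel differences were -0.45, 0.83 and 0.00 (limma adjusted p = 0.864, 0.646 and 0.998). Gel replicate 2 was the lowest gel array for each. Hp was at 667, 187 and 672 in gel (1.23 higher with tPA, limma adjusted p = 0.349), and Gucy1a1 at 1824 to 2042 (-1.04, limma adjusted p = 0.215). With 3 arrays on each side these values do not show that tPA and gel act alike. Gel replicates 1 and 3 were also alike in the actin ratio (19.4 and 19.1, replicate 2 13.4). Their summed skeletal muscle markers were 34813 and 35792, against 63669 in replicate 2. Whether the gel arrays were independent was not tested.

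Intact arteries gave a second control. Against them 335 genes passed (9.45%), 132 higher (3.72%) and 203 lower (5.72%), and 118 of the 161 genes that differed from sham also passed there in the same direction, 31 of the 55 higher and 87 of the 106 lower. Both comparisons share the tPA arrays. Il1b, Hmox1, Hp, Ptgfr, Myc and Fabp5 were higher than intact by 3.48, 3.96, 2.64, 2.21, 2.09 and 2.76 (limma adjusted p = 0.00509, 0.000687, 0.00131, 0.00334, 0.0024 and 0.000867). Gucy1a1, Myh11, Fbln5, Omd and Gsta1 were lower by values between -1.42 and -3.57. Rises over sham that did not pass against intact included Aldoa (1.13), Bdkrb1 (0.55), Adora2a (0.59) and Col1a2 (1.53), and falls that did not pass included Cyp2c11, Ccl11, Igfbp5, Lum (-1.39) and Rnase1 (-1.40).

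Leaving out tPA replicate 2 added genes in which that array lay with sham. The largest added rises included Esm1, an endothelial proteoglycan induced by cytokines, at 5651, 123 and 2023 against 149 to 188 in sham (4.29 without replicate 2, limma adjusted p = 0.00635). Igsf6, a receptor of myeloid cells, measured 2723, 136 and 1710 against 4.5 to 264 (4.39, limma adjusted p = 0.00647), and Olr1, the receptor of oxidised lipoprotein, 1344, 66.7 and 628 against 55.2 to 101 (3.72, limma adjusted p = 0.00365). Replicate 2 was within the sham range for Igsf6 and Olr1 and below it for Esm1. Klhl41, of muscle sarcomeres, and Mgp, matrix Gla protein, were added too. Mgp was listed at 0 in tPA replicate 2 and 3 sham arrays, so its 6.62 has little meaning as a size. The largest added falls included Aldh3a1, an aldehyde dehydrogenase, at 200, 1682 and 336 against 1570 to 2129 (-2.81, limma adjusted p = 0.0198), and Gnao1, a G protein subunit, at 316, 1310 and 261 against 1845 to 2193 (-2.78, limma adjusted p = 0.00926). The muscle genes Acta1 and Ckm measured 266, 1861 and 0, and 196, 1289 and 0, against 1395 to 2756 and 692 to 905. They were at 0 on replicate 3, the array with the highest summed muscle signal. Both were read from bright probe sets that were near 0 on some arrays. Obp3, an odorant-binding protein, Sncg, a neuronal synuclein, Rftn2, a raft protein, and Akr1c13, an aldo-keto reductase, differed by -4.45, -3.63, -3.23 and -2.74 in the same fit.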

How the data were processed

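RNA pooled from 3 carotid arteries was hybridised to each of 40 Affymetrix rat genome arrays, per the labels. The deposited table holds a linear intensity for every probe set on every array, and how probes were summarised is not given in the sources used here. Near-equal trimmed means over all arrays show that a scaling was applied before deposit, so values are relative to the rest of each array. Of 8799 probe sets, 59 controls were left out, values below 23.3 (the 20th percentile) were raised to it, log2 was taken, and 2913 dim probe sets were left out, leaving 5827 probe sets for 3546 genes. Raising low values understates changes of dim genes. Names came from platform annotation of 2016 (7006 probe sets with 1 symbol, 308 with several, 1426 without, which stay unnamed). Each gene is read from its brightest probe set. The model was fitted with limma 3.58.1 in R 4.3.3 to all 40 arrays, with 11 group means and a shared spread, and p-values were adjusted by Benjamini-Hochberg (threshold 0.05). All adjusted p-values are from limma. The fit was tested on simulated arrays with independent normal errors. They held no alike arrays and none that stood apart, so that test cannot show how such arrays affect the calls here. Genes named are the 12 largest rises and falls, up to 5 members by p of each list described, a set of plasminogen, contractile and inflammatory genes, the 8 largest each way added without tPA replicate 2, and those that differ from gel. Aspn, Adora2b, Itpr1, Adra1b, Cacnb2 and Tcap were named after their values were seen. Members and lists were chosen with earlier results of these data known. The number of arrays limits the precision.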

Additional observations from a re-analysis of the deposited data

Results flagged for a closer look

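Single arrays stood far from the rest of their control group in several named genes. In sham arteries of day 1 these were Col1a2 in replicate 1 (186.3 intensity units, others 12.1 to 17.4), Mgp in replicate 1 (172.9, others 0), Enpp3 in replicate 1 (61.9, others 20.9 to 22.8), Plau in replicate 1 (243.1, others 317.8 to 330.0), Cxcl2 in replicate 2 (39.4, others 4.4 to 7.8), Cenpw in replicate 2 (185.1, others 123.9 to 130.7), Gap43 in replicate 3 (240.1, others 142.9 to 151.5) and Ptgfr in replicate 4 (64.9, others 35.7 to 38.8). In intact arteries they were Col1a2 in replicate 6 (141, others 2267.8 to 5338.6), Enpp3 in replicate 2 (65.3, others 12.1 to 26.3), Dact2 in replicate 2 (54.1, others 98.2 to 111.3), S100a9 in replicate 3 (29.1, others 5.5 to 18.9) and Mmp9 in replicate 4 (133.2, others 9.3 to 28.6). That is 8 of 103 genes examined in sham and 5 of 103 in intact arteries, where chance gives about 1 in 20 for values above the floor. The rule was applied after low values were raised to the floor of 23.3. Where all other arrays were at the floor, any value above it was flagged, and the 1 in 20 does not hold. This was so for Col1a2, Mgp, Enpp3 and Cxcl2 in sham and S100a9 in intact arteries.

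Injured arteries with tPA differed from injured arteries with gel in 7 probe sets, tested directly with limma as tPA minus gel. Without tPA replicate 2, Cdk1, Pcna and Smc4 lost their calls. No probe set passed in the fit of only these groups or without tPA replicate 3, where 525 and 657 had an unadjusted p under 0.05 (limma). The log2 differences were -3.12 for Cdk1, -2.71 for Cenpw, -2.29 for Smc4, -1.38 for Pcna, 1.64 for Adora2a, -4.42 for a probe set of Tpm1 that is not its brightest, and -1.99 for an unnamed probe set.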

How the results depend on the processing

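Counts are of probe sets that passed. Against sham (258), the fit of only these groups gave 54, the fit without 4 tPA arrays that stand apart (replicate 2 of left and right tPA day 1, replicate 1 of left and right tPA day 4) 682, and averaging alike sham arrays 1; fits without 1 array gave 27 to 485. Against gel (7), quantile normalization gave 11, median scaling 41, a filter of 50% 29, the 40th percentile as floor 29, array weights 128, only these groups 0 (limma; 525 at an unadjusted p under 0.05) and the fit without the 4 arrays 115, with 0 to 132 without 1 array. Against intact (508), only these groups gave 307 and the fit without the 4 arrays 890, with 132 to 708 without 1 array. With the replicate number as a block over all arrays, 238, 4 and 507 passed. A block within the groups compared, over replicates 1 to 3, an alternative chosen after seeing the data, left 1 against sham and 0 against gel and intact (limma; 440 and 859 at an unadjusted p under 0.05). Same-numbered tPA and sham arrays had deviations correlated at 0.233, -0.185 and 0.123, and 1 of 3 tPA arrays correlated best with its own number, so numbers were not taken as pairs. All other settings stayed within 1.5 times. Signs turned only in genes that had not passed: without 1 array the difference from sham ran from -0.31 to 0.17 for Cdk1, -0.54 to 0.077 for Col1a1, -0.42 to 0.28 for Pcna and -0.65 to 0.0026 for Plat. Pcna also had 0.28 without the 4 arrays, and over the mean of all their probe sets Mmp2 had 0.0039, Pcna 0.0074 and Col1a1 0.17. Of the 60 called genes named, 44 kept their call under quantile normalization, 51 without the filter and 13 with only these groups. The smaller fits use fewer arrays; the cause of the other changes was not tested. Dim genes near the floor have compressed differences.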
